A study of Citrus sinensis with 6 samples.

Results

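Transcripts of salicylic acid-binding protein 2 (SABP2) and of a polyneuridine-aldehyde esterase-like gene were measured with 3 probe sets, Cit.19437.1.S1_x_at, Cit.19437.1.S1_at and Cit.35.1.S1_x_at, out of 30395 on the Citrus Genome GeneChip, 30171 of which represent citrus sequences. Self-pruning is the shedding of the shoot tip, and it was followed at 3 stages, namely 3 days before it (stage 1), at its onset (stage 2) and 7 days after it (stage 3). All samples were spring shoot tips with the abscission zone, cut from field-grown adult sweet orange trees (Citrus sinensis cv. Cara Cara Navel Orange) that carried no treatment, and each stage had 2 arrays labelled biological replicates. Nothing in the labels tied an array to particular trees, so the p-values given here measure only the spread between these arrays. The 3 probe sets were chosen by name and with their changes over the stages known. Their differences are therefore given as a description, without a test.

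SABP2 is a small hydrolase of the alpha/beta hydrolase fold that was described in tobacco. It removes the methyl group of methyl salicylate, a volatile and mobile form of the defence hormone, and so releases free salicylic acid in tissue distant from an infection. Polyneuridine-aldehyde esterase, known from Rauvolfia, is a relative that acts on a methyl ester in alkaloid synthesis, and many plant genes with this annotation are simply members of the methyl esterase family whose substrate is not known. Salicylate O-methyltransferase catalyses the reverse step, the methylation of salicylic acid, whereas glucosyltransferases of the UGT74F type link it to glucose for storage.

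All 3 probe sets had their highest signal before self-pruning and lost most of it by its beginning. The 2 arrays of a stage lay close together, and for every one of these probe sets the lowest stage 1 array exceeded the highest later array by at least 3.45 log2 units. Signals are log2 values, so a difference of 2 is a 4-fold change, and each difference is followed by its standard error (SE) from a linear model fitted to all arrays, which is the same for any pair of stages of a probe set. Since whole tips were sampled, a loss of the cells that hold a transcript and a loss of transcript per cell cannot be told apart.

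The polyneuridine-aldehyde esterase-like probe set Cit.35.1.S1_x_at gave 12.87 and 12.85 at stage 1, 7.35 and 7.46 at stage 2, and 7.91 and 8.04 at stage 3. The stage 1 arrays stood far above the other 4. The stage 2 minus stage 1 difference was -5.46 ± 0.061, a 43.9-fold lower signal, and the stage 3 minus stage 1 difference was -4.88 ± 0.061, 29.5-fold lower (n = 2 arrays per stage). Both stage 3 arrays lay above both stage 2 arrays, by a mean of 0.57 ± 0.061, which is a small return beside the size of the fall. The other probe set of this transcript, Cit.35.1.S1_at, gave 12.68 and 12.65 at stage 1, 7.61 and 7.65 at stage 2, and 7.87 and 8.03 at stage 3. It followed the same course, with differences of -5.03 ± 0.062 at stage 2 and -4.71 ± 0.062 at stage 3 against stage 1.

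For SABP2, Cit.19437.1.S1_x_at gave 10.21 and 10.17 at stage 1, 5.37 and 5.44 at stage 2, and 5.52 and 5.41 at stage 3. The fall was complete at stage 2, with a difference of -4.79 ± 0.053 (27.6-fold lower) against stage 1. The stage 3 minus stage 1 difference was -4.73 ± 0.053 (26.5-fold lower), and the arrays of stages 3 and 2 overlapped, with a mean difference of 0.06 ± 0.053. The second SABP2 probe set, Cit.19437.1.S1_at, gave 9.17 and 9.21 at stage 1, 5.72 and 5.56 at stage 2, and 5.08 and 5.02 at stage 3. It came down in 2 steps, with differences of -3.55 ± 0.065 at stage 2 (11.7-fold lower) and -4.14 ± 0.065 at stage 3 (17.6-fold lower) against stage 1. Its stage 3 arrays both lay below its stage 2 arrays, with a difference of -0.58 ± 0.065, a step that was not seen with the first SABP2 probe set.

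The later SABP2 signals reached the level of probe sets without a target. The 60 reporter controls, made against foreign sequences, gave at most 5.67, and of the 8 SABP2 signals at stages 2 and 3 only 1, at stage 2, was above that value. Read against this level, Cit.19437.1.S1_x_at was at least 23.0-fold lower at stage 2 and at stage 3 than at stage 1, whereas Cit.19437.1.S1_at was at least 11.3-fold lower at stage 2 and at least 11.5-fold lower at stage 3. The step of the second SABP2 probe set between stages 3 and 2 lies within the range of these controls. The 23 random-sequence controls ranged from 7.07 to 10.49, so that the controls give no single background for the Cit.35 signals at the later stages. Probe sets ending in _x_at hold probes that can match other transcripts, and to what extent close copies contributed was not tested.

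**Figure D1:**
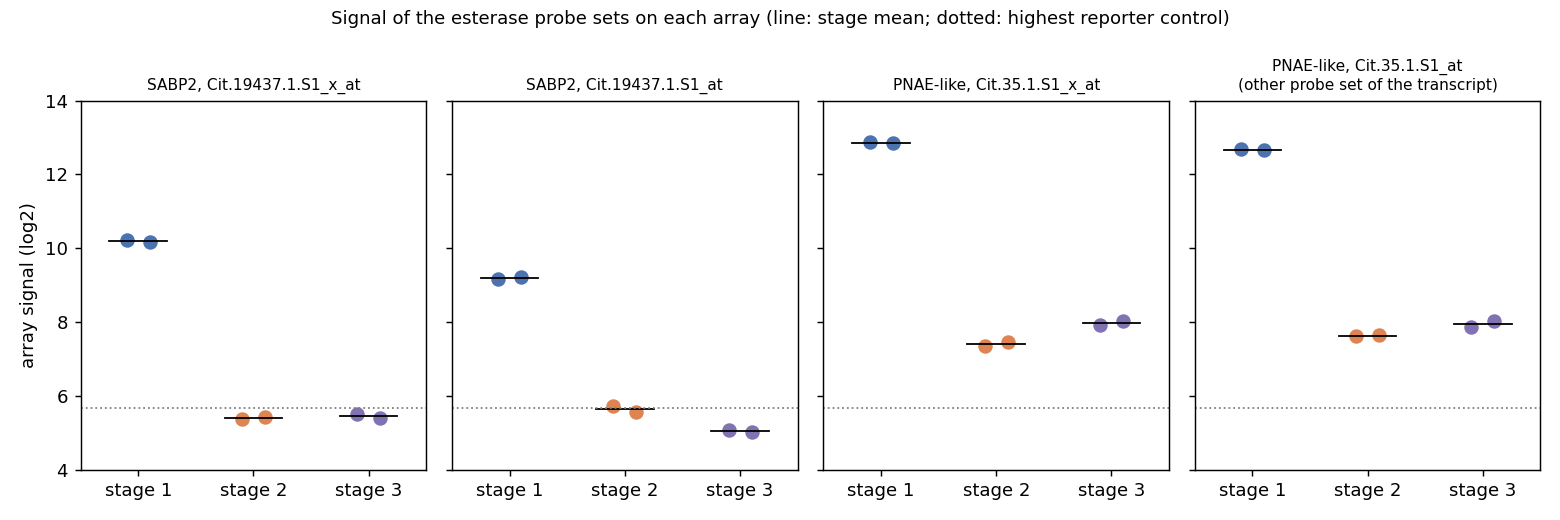
Array signal (log2) of both SABP2 probe sets, the polyneuridine-aldehyde esterase-like (PNAE-like) probe set and the other probe set of the same transcript at stages 1, 2 and 3. Each point is 1 array, the short lines are stage means and the dotted line is the highest reporter control (5.67); all points of stage 1 lie at least 3.45 above those of the later stages.

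These falls were among the deepest on the array. Ordered by the stage 2 minus stage 1 difference, Cit.35.1.S1_x_at came in place 4 of 30171, Cit.19437.1.S1_x_at in place 10 and Cit.19437.1.S1_at in place 29. By the stage 3 minus stage 1 difference they came in places 5, 7 and 26. The study's rule asked for at least 4-fold and an unadjusted p not above 0.001. Here the p came from the linear model and not from the study's own test, so the counts are not those of the study. Such a fall was met by 109 probe sets at stage 2 (0.361% of those tested) and 376 at stage 3 (1.25%), and 40 probe sets were at least 4-fold lower at both. Only 6 of the 30171 were at least 16-fold lower than stage 1 at both later stages, among them Cit.35.1.S1_x_at and Cit.19437.1.S1_x_at. The members were picked for these changes, so nothing is read from their places.

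**Figure D2:**
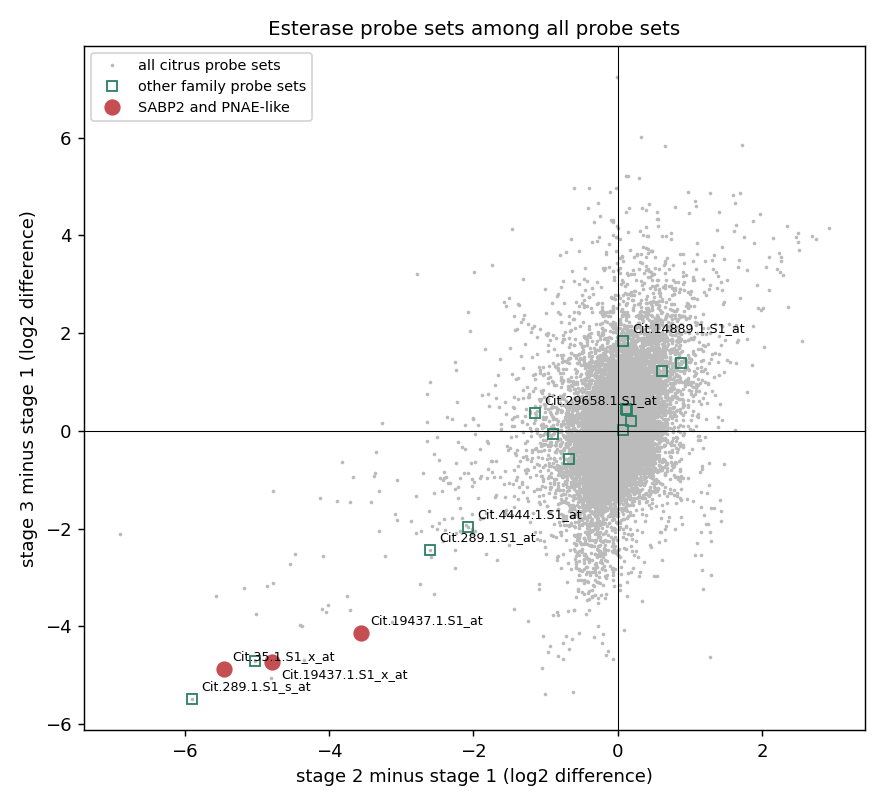
Stage 2 minus stage 1 difference (x axis) and stage 3 minus stage 1 difference (y axis), both log2, of all 30171 citrus probe sets (grey), with both axes sharing the stage 1 arrays. The 3 described probe sets (red circles) lie at the lower left, between -5.46 and -3.55 on the x axis, while the other probe sets of the family (open green squares) spread from -5.90 to 0.88.

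The family around SABP2 is larger than these transcripts. According to the annotation of the array, 14 probe sets of 9 transcripts have their best match to the same database protein, and another 3 carry a name that begins with polyneuridine, which gives 17 probe sets of 12 transcripts. Beyond the 4 probe sets of Cit.19437 and Cit.35, 13 relatives of 10 transcripts remained. They were tested with limma in a fit over all 30171 probe sets, with Benjamini-Hochberg adjusted p under 0.05 as the threshold. At stage 2 against stage 1, 4 relatives rose, 6 fell and 3 did not pass, where 20.2% of all probe sets rose and 21.5% fell. At stage 3 against stage 1, 7 rose, 4 fell and 2 did not pass, beside 29.9% and 35.9% of all probe sets. The median difference of the relatives was 0.08 at stage 2 and 0.20 at stage 3, against medians of 0.01 and -0.04 over all probe sets. A fall past 4-fold by the study's rule was met by 3 of the 13 at stage 2 and 2 at stage 3 (0.361% and 1.25% of all probe sets), and a rise past 4-fold by none at either stage. They followed 4 patterns.

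The first pattern was a fall that lasted, the one of SABP2 and Cit.35. It was shared by Cit.289, whose transcript matches the same protein with an E value of 1e-20 (1e-154 for Cit.35 and 1e-112 for Cit.19437), although the homologue name given in the supplementary annotation is DNA binding protein. Its probe set Cit.289.1.S1_s_at gave 11.95 and 11.94 at stage 1, 6.14 and 5.94 at stage 2, and 6.44 and 6.46 at stage 3. With a log2 change of -5.90 ± 0.072 at stage 2 (limma adjusted p = 1.6e-05), it was the second deepest fall of all probe sets, and at stage 3, with -5.49 ± 0.072 (limma adjusted p = 3.1e-06), the deepest. The probe set specific to this transcript, Cit.289.1.S1_at, fell less, by 2.60 ± 0.085 at stage 2 and by 2.44 ± 0.085 at stage 3 (limma adjusted p = 0.00016 and 2.4e-05). A probe set ending in _s_at matches several transcripts of a family, so the signal of Cit.289.1.S1_s_at may hold that of near copies, which was not tested. Cit.4444.1.S1_at, annotated as a methyl esterase, gave 6.58 and 6.81 at stage 1, 4.64 and 4.59 at stage 2, and 4.60 and 4.84 at stage 3, a fall by 2.07 ± 0.113 at stage 2 (limma adjusted p = 0.00053) and by 1.97 ± 0.113 at stage 3 (limma adjusted p = 0.00011). Its later signals, too, lay below the highest reporter control, and read against that level the falls were at least 1.02 at both stages. A smaller lasting fall, by 0.68 ± 0.086 at stage 2, was found for Cit.22900.1.S1_x_at, which lay below that control already at stage 1 with 4.85 and 4.92.

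The second pattern was a dip with a return, and it set Cit.29658 apart from SABP2 and Cit.35. Cit.29658.1.S1_at gave 7.15 and 7.25 at stage 1, 6.02 and 6.11 at stage 2, and 7.59 and 7.53 at stage 3. It fell by 1.14 ± 0.055 at stage 2 and was higher by 0.36 ± 0.055 at stage 3 than at stage 1, so that the rise of stage 3 over stage 2 came to 1.49 ± 0.055 (limma adjusted p = 3.2e-05). Cit.29658.1.S1_s_at had a stage 2 difference of -0.89 ± 0.102, also past the threshold, and its stage 3 and stage 1 arrays overlapped, with a difference of -0.07 ± 0.102 (limma adjusted p = 0.58). All 6 signals of this second probe set lay below the highest reporter control, so the dip and return rest on Cit.29658.1.S1_at.

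The third pattern was a rise, opposite in sign to the change of SABP2 itself. Cit.14889.1.S1_at, annotated as a partial salicylic acid-binding protein, gave 6.32 and 6.15 at stage 1, 6.43 and 6.19 at stage 2, and 8.07 and 8.06 at stage 3. It had a difference of 0.08 ± 0.100 at stage 2 (limma adjusted p = 0.59) and rose by 1.83 ± 0.100, or 3.55-fold, at stage 3 (limma adjusted p = 9.4e-05). Cit.14890 rose at both stages. For Cit.14890.1.S1_at the signals were 8.70 and 8.73 at stage 1, 9.55 and 9.63 at stage 2, and 10.09 and 10.11 at stage 3, with rises of 0.88 ± 0.037 and 1.38 ± 0.037 over stage 1 (limma adjusted p = 3e-04 and 1.2e-05). Its partner Cit.14890.1.S1_x_at rose by 0.61 ± 0.062 at stage 2 and 1.23 ± 0.062 at stage 3.

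The last pattern was little change. Cit.13087.1.S1_s_at had differences of 0.19 ± 0.040 and 0.20 ± 0.040 at stages 2 and 3 against stage 1, and Cit.13295.1.S1_s_at had 0.11 ± 0.027 and 0.45 ± 0.027, all past the threshold. Of these, only the Cit.13295 rise at stage 3 passed with each of the 6 arrays left out in turn. Cit.21647.1.S1_at had a difference of 0.13 ± 0.071 (limma adjusted p = 0.23) at stage 2 and rose by 0.42 ± 0.071 at stage 3. Cit.13294.1.S1_at passed at neither, with 0.08 ± 0.046 and 0.02 ± 0.046 (limma adjusted p = 0.25 and 0.70). These last 3 transcripts are those named polyneuridine on the array, and none had the fall of the polyneuridine-aldehyde esterase-like Cit.35.

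**Figure D3:**
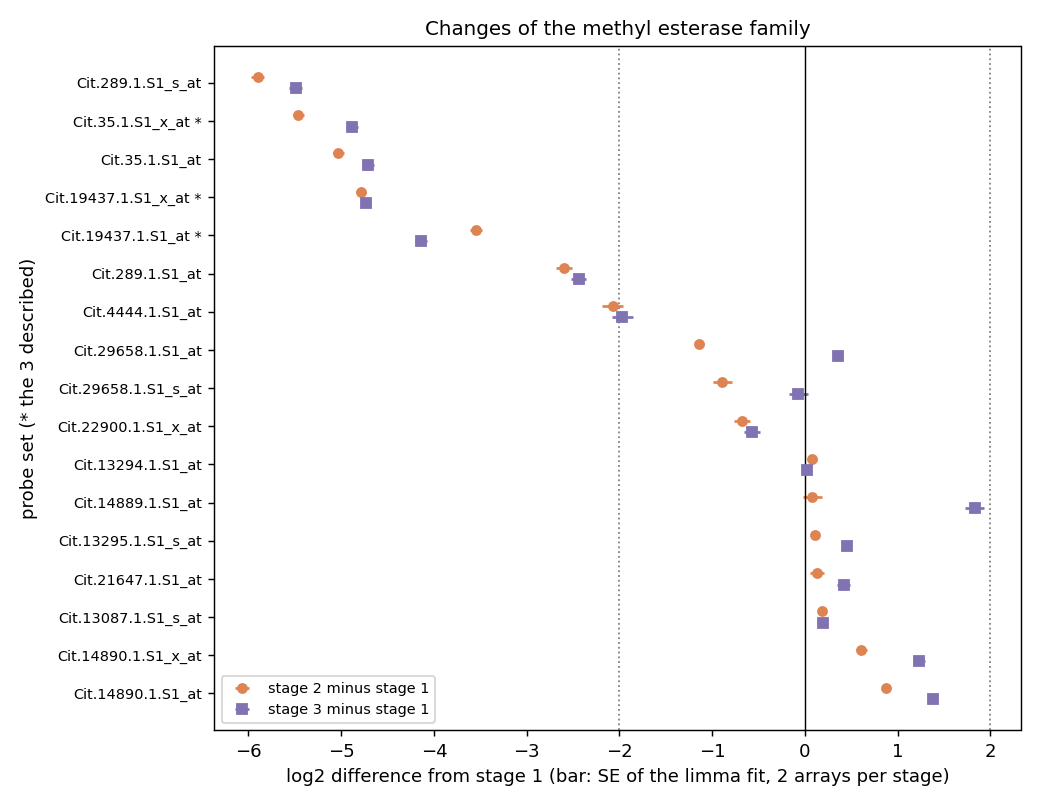
Log2 difference from stage 1 (x axis) for the 17 probe sets of the family, ordered by the change at stage 2. Orange circles are stage 2 minus stage 1, violet squares stage 3 minus stage 1, bars the SE of the limma fit with 2 arrays per stage, dotted lines a 4-fold change, and asterisks the 3 described probe sets, which lie between -5.46 and -3.55 at stage 2.

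The genes nearest to the esterases in pattern were few. Distance was taken as the Euclidean distance over the 6 arrays after each probe set was set to its own stage 1 mean, and names were sought among 1084 probe sets with an informative homologue name. That list was chosen by the study for large changes on these arrays. Within a distance of 1, out of 30170 others, Cit.19437.1.S1_x_at had 4 probe sets, Cit.19437.1.S1_at had 3 and Cit.35.1.S1_x_at had 3. The nearest to Cit.35.1.S1_x_at was its own partner Cit.35.1.S1_at (0.649), followed by a glycinin G1-like probe set (Cit.26593.1.S1_at, 0.958) and by SABP2 itself (Cit.19437.1.S1_x_at, 0.988). For Cit.19437.1.S1_x_at the order was Cit.35.1.S1_at (0.40), the glycinin G1-like probe set (0.468), an aminotransferase of branched-chain amino acids (Cit.3629.1.S1_s_at, 0.648) and Cit.35.1.S1_x_at (0.988). The remaining names of its 10 nearest were a flavonoid 3'-monooxygenase-like gene, an 11S globulin seed storage protein 2, a cytochrome P450 71A1-like gene, the homeobox-leucine zipper protein ATHB-40, a chitinase and Cit.289.1.S1_s_at, at distances between 1.19 and 1.93. For Cit.35.1.S1_x_at the other names after Cit.289.1.S1_s_at (1.09) were the same aminotransferase, P450, monooxygenase and globulin, and 2 probe sets of seed maturation protein LEA 4 (2.13 and 2.40).

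The second SABP2 probe set shared 5 of its 10 nearest names with the first. The nearest to Cit.19437.1.S1_at was a class 4 pathogenesis-related family protein (Cit.21717.1.S1_at, 0.721), whose signal also fell at stage 2 and was lower still at stage 3. Next came an organ-specific protein S2 (Cit.29507.1.S1_s_at, 0.723) and ATHB-40 (Cit.30657.1.S1_s_at, 0.964), and then a chitinase, a basic endochitinase-like protein, the 11S globulin, the monooxygenase, the aminotransferase and a proteasome inhibitor-related probe set. The first SABP2 probe set came in place 10, at a distance of 1.95. Since 7 of the 8 later signals of both SABP2 probe sets lay below the highest reporter control, the size of their falls is limited by the stage 1 signal, and no difference in pattern is read from these distances.

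Since seed storage genes were among the neighbours, their list was read as well. Of 26 probe sets named as globulins, glycinin or late embryogenesis abundant (LEA) proteins, 17 exceeded the highest reporter control at stage 1. Their mean signal per array was 7.70 to 7.72 at stage 1, 6.81 to 6.83 at stage 2 and 6.83 to 6.84 at stage 3. The median difference was small at both stages, -0.15 at stage 2 and -0.30 at stage 3. At stage 2, 10 fell and 1 rose, where 21.5% of all probe sets fell and 20.2% rose, and at stage 3, 15 fell and 3 rose, beside 35.9% and 29.9%. Only 4 fell past 4-fold at stage 2, beside 0.361% of all probe sets. They were the glycinin G1-like, the 11S globulin and both LEA 4 probe sets already met as neighbours. At stage 3, 6 fell and 3 rose past 4-fold, beside 1.25% and 2.16%. All of these were among the 9 probe sets of the list with a homologue name, which the study chose for large changes on these arrays. The shares are therefore no measure for them. The glycinin G1-like probe set Cit.26593.1.S1_at fell by 4.80 at stage 2 and by 5.05 at stage 3 (limma adjusted p = 1.6e-05 and 2.3e-06), as far as SABP2 and Cit.35. A part of cells or material rich in these transcripts in the fall of the esterases was not tested.

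The shoot tip markers took another course. Of 19 probe sets named for knotted-type homeobox, YABBY, growth-regulating factor, AINTEGUMENTA-like, CLAVATA1 and cyclin B1 genes, 18 exceeded the highest reporter control at stage 1, and no WUSCHEL gene was analysed here. Their mean signal per array was 9.34 to 9.35 at stage 1, 9.05 to 9.07 at stage 2 and 7.11 to 7.18 at stage 3. At stage 2 the median difference was -0.27 (9 fell, 4 rose), beside 21.5% and 20.2% of all probe sets. None was past 4-fold, when the measured differences of SABP2 and Cit.35 were already between -5.46 and -3.55. At stage 3 the median difference was -2.68 (15 fell, 3 rose), beside 35.9% and 29.9% of all probe sets. A fall past 4-fold was met by 12, beside 1.25% of all probe sets. All 12 were among the 13 markers with a homologue name, a list the study chose for large changes on these arrays. The markers without such a name had stage 3 differences between -1.21 and 0.70. The median and the counts therefore partly reflect how the list was drawn. Of 19 green leaf probe sets, 8 rose and 2 fell at stage 2 (median 0.09), beside 20.2% and 21.5% of all probe sets. At stage 3, 14 of them fell and 2 rose (median -0.37), beside 35.9% and 29.9%. The 3' minus 5' difference of actin, a sign of RNA integrity, was 1.87 and 1.94 at stage 1, 1.89 and 1.93 at stage 2, and 1.62 and 1.66 at stage 3. The stage 2 values lay within the range of stage 1, and both stage 3 values lay below it. For ubiquitin this difference was 0.21 and 0.18 at stage 1, 0.28 and 0.25 at stage 2, and -0.11 and -0.18 at stage 3, so that here the stage 2 values lay above those of stage 1. The part of tissue composition and RNA integrity in the differences from stage 1 was not tested.

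The signal of a probe set named for the enzyme that makes methyl salicylate rose where the esterases were low, and mostly after stage 2. It is a transcript signal, and neither the enzyme nor methyl salicylate was measured. The probe set ends in _s_at and can match several transcripts, whose shares were not tested. The salicylate O-methyltransferase probe set Cit.36935.1.S1_s_at gave 7.81 and 7.84 at stage 1, 8.34 and 8.42 at stage 2, and 12.02 on both arrays of stage 3. It rose by 0.56 ± 0.034 at stage 2 (limma adjusted p = 0.00071) and by 4.20 ± 0.034, or 18.3-fold, at stage 3 (limma adjusted p = 1.9e-06), and none of its stages overlapped. Cit.9392.1.S1_at, a UGT74F2-like glycosyltransferase, gave 7.18 and 7.30 at stage 1, 6.74 and 6.82 at stage 2, and 9.18 and 9.15 at stage 3. It fell by 0.46 ± 0.055 at stage 2 (limma adjusted p = 0.0039) and rose by 1.92 ± 0.055 at stage 3 (limma adjusted p = 1.4e-05). At stage 3 the measured signals of SABP2 and Cit.35 were 17.6-fold to 29.5-fold below stage 1, while both genes named for enzymes that use salicylic acid were above it. Both genes were sought only among homologue names, a list the study chose for large changes on these arrays. Unchanged probe sets of such enzymes could therefore not enter. A rise of at least 4-fold at stage 3, which the methyltransferase passed, was found for 2.16% of all probe sets. That share is no measure for a probe set so chosen.

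**Figure D4:**
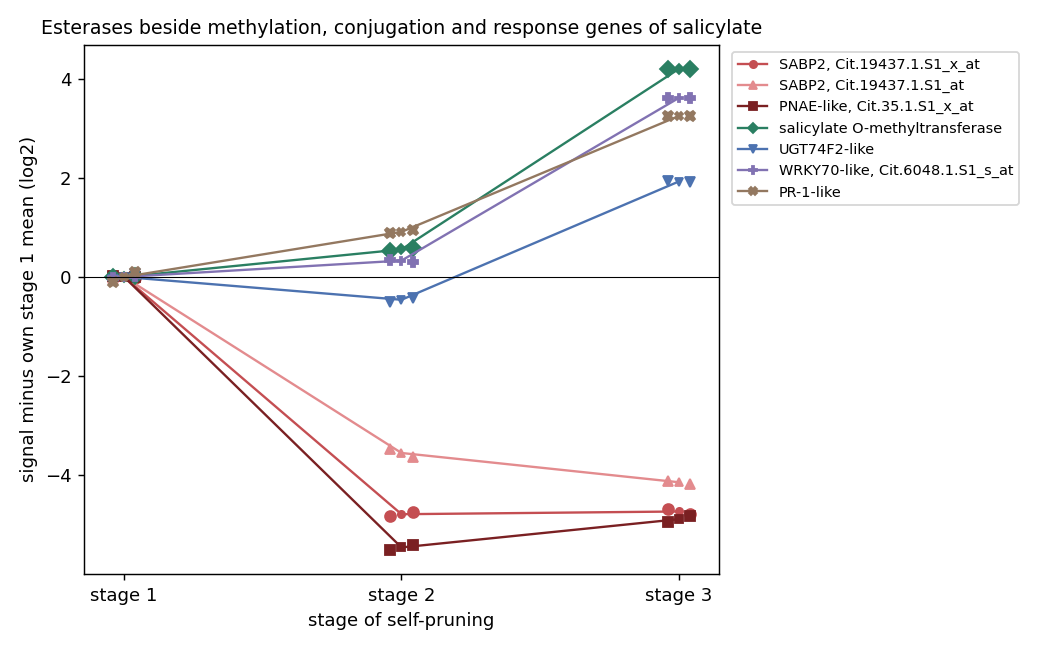
Signal minus the probe set's own stage 1 mean (log2, y axis) at stages 1, 2 and 3 for both SABP2 probe sets, the polyneuridine-aldehyde esterase-like (PNAE-like) probe set, salicylate O-methyltransferase, the UGT74F2-like, a WRKY70-like and the PR-1-like gene. Larger markers are single arrays and lines join stage means. The esterases drop by stage 2 (-5.46 to -3.55), while the methyltransferase (4.20), WRKY70-like (3.61) and PR-1-like (3.25) probe sets rise mostly by stage 3. The PR-1-like gene does not stand for the 30 response probe sets. Among them, lower calls outnumbered higher ones by 17 to 4 (stage 2) and by 16 to 8 (stage 3). Response genes that fell, such as Cit.21717.1.S1_at (-3.13 and -3.91), are not drawn.

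Salicylic acid can be made through chorismate and isochorismate or from phenylalanine. Of 10 probe sets with names of these enzymes, the test called 3 higher and 2 lower at stage 2, close to the 20.2% and 21.5% of all probe sets. It called 3 higher and 7 lower at stage 3 (median -0.70), beside 29.9% and 35.9%. Chorismate mutase (Cit.17342.1.S1_at), which directs chorismate to phenylalanine and tyrosine, was the only one past 4-fold, with 10.30 and 10.29 at stage 3 against 7.71 and 7.81 at stage 1, a rise by 2.54 ± 0.042 (limma adjusted p = 4.4e-06). A second transcript of that name, Cit.31487, fell at stage 3, by 0.92 (Cit.31487.1.S1_at) and 0.79 (Cit.31487.1.S1_s_at). Array names are shortened, so that a name such as phenyla does not settle the enzyme. None of the 10 had a fall at stage 2 that approached those of the esterases, the lowest difference being -0.24.

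Signalling genes of salicylic acid showed no fall like that of the esterases at stage 2, where their lowest difference was -0.26. Of 21 probe sets, the test called 6 higher and 1 lower at stage 2 and left 14 uncalled, beside 20.2% higher and 21.5% lower over all probe sets. At stage 3 it called 11 higher and 6 lower, beside 29.9% and 35.9%. The WRKY70-like and NDR1-like probe sets could enter only by a homologue name, a list the study chose for large changes on these arrays. They make up most of the rises called at stage 2 and part of those at stage 3. The shares over all probe sets are no measure for them. The WRKY70-like Cit.6048.1.S1_s_at, a transcription factor induced by salicylic acid in Arabidopsis, rose by 3.61 ± 0.031 at stage 3 (12.2-fold, limma adjusted p = 1.9e-06), and a second one, Cit.7937.1.S1_at, by 2.09. The probe set named NPR1 (Cit.31251.1.S1_at), after a receptor of the hormone, had differences of 0.04 at stage 2 (limma adjusted p = 0.74) and -0.97 at stage 3 (limma adjusted p = 0.00039). The 7 probe sets named NIM1-like, after another name of NPR1, went both ways, with none called at stage 2, and 2 higher and 2 lower at stage 3 (differences from -0.35 to 0.52). Cit.36110.1.S1_at, with the cut array name NPR1/NIM1-int, rose by 1.67 ± 0.068 at stage 2, the highest difference of the 21 there. At stage 3 it was higher than at stage 1 by 1.85 ± 0.068 (limma adjusted p = 0.00027 and 2.8e-05).

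Response genes divided. Of 30 probe sets of pathogenesis-related and thaumatin-like proteins, 4 rose and 17 fell at stage 2 (median -0.31), beside 20.2% and 21.5% of all probe sets, and 8 rose and 16 fell at stage 3, beside 29.9% and 35.9%. Some had a fall at stage 2 like that of the esterases. The class 4 pathogenesis-related gene (Cit.21717.1.S1_at) had differences of -3.13 at stage 2 and -3.91 at stage 3. Thaumatin-like probe sets had differences at stage 2 of -3.30 (Cit.1200.1.S1_s_at), -3.08 (Cit.1201.1.S1_at), -2.59 (Cit.2399.1.S1_s_at) and -2.02 (Cit.1200.1.S1_at), and between -2.58 and -1.71 at stage 3. Where their later signals lay below the highest reporter control, the falls read against it were at least 2.75 for Cit.1201.1.S1_at at stage 2 and at least 0.95 for Cit.2399.1.S1_s_at at both stages. The win1 probe sets, named for a wound-induced potato protein, had stage 2 minus stage 1 differences of -3.37 (Cit.753.1.S1_x_at) and -3.06 (Cit.580.1.S1_x_at), and were higher by 2.44 and 2.06 at stage 3 than at stage 2. The PR-1-like Cit.31825.1.S1_at instead rose, by 0.91 ± 0.071 at stage 2 and 3.25 ± 0.071 at stage 3 (limma adjusted p = 0.0013 and 7.2e-06), as did a thaumatin-like partial sequence (Cit.30775.1.S1_s_at, 0.78 and 2.60). PR-1 is a common marker of the salicylic acid response. The name PR-1-like does not settle whether this transcript responds to the hormone, which was not tested. Cit.11548.1.S1_at, named Thauma on the array, fell by 1.09 at stage 2 and rose by 1.31 at stage 3.

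Gene Ontology terms with salicylic acid were carried by 19 probe sets of the supplementary annotation, a list the study chose on these samples, so that its counts are not independent evidence of direction. All 3 described probe sets and Cit.35.1.S1_at belong to it, and they have the 4 lowest stage 2 differences in it. At stage 2, 4 of the 19 rose and 12 fell, beside 20.2% and 21.5% of all probe sets. At stage 3, 10 rose and 9 fell, beside 29.9% and 35.9%. The shares over all probe sets are no measure for a list so chosen. Besides the esterases, only Cit.6376.1.S1_at (MYB21-like) passed a 4-fold fall at stage 2, with -2.21, and it had nearly returned at stage 3 with -0.23. Cit.16594.1.S1_at (gamma-glutamyl transpeptidase 1, -2.54) and Cit.23435.1.S1_s_at (AS1-like, -2.11) fell past 4-fold at stage 3. Those that rose past 4-fold at stage 3 were 2 aspartyl proteases (Cit.28117.1.S1_s_at, 3.94, and Cit.23704.1.S1_at, 2.50), BON1-associated protein 2 (Cit.15757.1.S1_at, 2.89), mitogen-activated protein kinase 3 (Cit.30629.1.S1_at, 2.46), a stress-associated zinc finger protein (Cit.15153.1.S1_at, 2.38), RNA-dependent RNA polymerase 1 (Cit.30333.1.S1_at, 2.35), a NAC domain protein (Cit.3450.1.S1_at, 2.18) and a GASA5-like gene (Cit.35768.1.S1_s_at, 2.01). Of these, 4 had both stage 1 signals below the highest reporter control, and read against it their rises were at least 2.11 for Cit.15757.1.S1_at, 1.48 for Cit.23704.1.S1_at and Cit.30629.1.S1_at, and 1.42 for Cit.30333.1.S1_at. The lower stage 1 array of Cit.28117.1.S1_s_at (5.52) also lay below that control, so its 3.94 is not an "at least" value. ATL2-like (Cit.5888.1.S1_at) and TSJT1-like (Cit.18006.1.S1_at) rose past 4-fold only between stages 3 and 2, by 2.30 and 2.05.

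Other esterases and hydrolases that fell at stage 2 were closer to their stage 1 signal at stage 3 than SABP2 and Cit.35 were. Of 22 probe sets, the test called 9 higher and 5 lower at stage 2, where 20.2% and 21.5% of all probe sets were. At stage 3 it called 15 higher and 3 lower, beside 29.9% and 35.9%, with no fall reaching 4-fold. Carboxylesterases were sought only among homologue names, a list the study chose for large changes on these arrays. Most of the rises at stage 3, and all of those past 4-fold, belonged to probe sets with such a name. The shares over all probe sets are no measure for these. Among those that fell past 4-fold at stage 2, an alpha/beta hydrolase with 2 probe sets (Cit.26572.1.S1_at, -2.64, and Cit.26572.1.S1_s_at, -2.12) had differences of 0.18 and 0.11 at stage 3. Its stage 2 signals lay below the highest reporter control, so that read against it the falls were at least 2.43 and 1.55. The carboxylesterase 6-like probe sets Cit.9301.1.S1_s_at and Cit.9300.1.S1_s_at had differences of -2.38 and -2.15 at stage 2, and of -0.94 and -0.33 at stage 3. At stage 3 the rises past 4-fold belonged to GDSL esterase/lipases, which have another fold (Cit.38686.1.S1_at, 4.65, Cit.39287.1.S1_s_at, 2.97, Cit.15067.1.S1_at, 2.49, and Cit.5383.1.S1_at, 2.14), and to an alpha/beta fold protein (Cit.5478.1.S1_at, 2.21). All but Cit.5383.1.S1_at started below the highest reporter control, and read against it the rises were at least 4.14 for Cit.38686.1.S1_at, 1.37 for Cit.39287.1.S1_s_at, 1.43 for Cit.15067.1.S1_at and 1.33 for Cit.5478.1.S1_at.

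The arrays themselves were alike. Their medians over citrus probe sets lay between 7.30 and 7.39, and the arrays of a stage correlated at 0.999 across genes. At the threshold used, 41.7% of all probe sets were called at stage 2 against stage 1, 65.8% at stage 3 against stage 1 and 65.6% at stage 3 against stage 2, so that a call alone says little and the size of the difference has to be read with it. At stage 2, 48.4% of the calls were higher, and 60.7% once each array was centred on its median, whereas the differences of the 3 described probe sets moved by less than 1 SD.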

How the data were processed

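Total RNA of 6 samples was hybridized to 1-colour Affymetrix arrays. The authors deposited log2 signals per probe set, for which their methods name RMA in Expression Console and also normalization with Microarray Suite 5.0. The values have the log2 scale of RMA. A second deposited table holds stage means (equal to the mean of the 2 arrays within 7.0e-05) and the p-values and ratios of the authors' own comparisons, which were not used.

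After 224 control probe sets were left out, limma 3.58.1 (R 4.3.3) was fitted to 30171 probe sets on all 6 arrays with stage as factor, empirical Bayes moderation and Benjamini-Hochberg adjustment over all of them. All tests were two-sided. It replaced SAM, named in the methods, because 2 against 2 arrays allow too few relabellings. On simulated data for stage 2 against stage 1 (30171 probe sets), 38 of 50 planted differences of 0.5, 46 of 50 of 1, and 50 of 50 each of 2 and 4 log2 units were recovered, with 11 false calls. The simulated noise was independent and few probe sets were changed, unlike on these arrays. The false calls therefore do not measure the error of the real calls. The number of arrays limits the precision.

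Names came from the array annotation (23634 probe sets, names often cut to 7 letters) and from homologue names of the study's supplementary annotation (1377 probe sets). The study chose the probe sets of the second source for large changes on these arrays. List members known only by a homologue name are therefore chosen for change as well. A cut name of at least 4 letters counted when it began a searched name. The beginnings alpha and phenyl, and matches to 2 proteins that a homologue name calls otherwise, were left out after the data were seen. The text names the 3 probe sets, the other probe set of their transcripts, every relative by name, the 10 nearest in pattern and every member of a salicylate or esterase list past 4-fold in any pair of stages. Seed storage, shoot tip and leaf markers are given as lists. The NPR1, NIM1-like and NPR1/NIM1-int probe sets and the second chorismate mutase were added after their values were seen. An "at least" difference takes each signal below the highest reporter control as equal to it, array by array. Probe sets and lists were chosen with earlier results of these data known. The alternatives tried were array centring, quantile normalization, the replicate number as a block, only the 4 arrays compared, a filter on dim probe sets, no moderation, a trend in the prior variance, each array left out, and the study's thresholds. Probe sets could not be matched to sequences here, and none is printed. Tables and plots were made with Python 3.11.15, pandas 2.3.3 and matplotlib 3.10.9.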

Additional observations from a re-analysis of the deposited data

How the results depend on the processing

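Array centring and quantile normalization moved none of the differences of the 3 described probe sets by 1 SD or more. With each array left out, the stage 2 minus stage 1 difference ranged from -4.82 to -4.75 for Cit.19437.1.S1_x_at, from -3.63 to -3.47 for Cit.19437.1.S1_at and from -5.51 to -5.40 for Cit.35.1.S1_x_at. At stage 3 against stage 1 the ranges were -4.79 to -4.67, -4.17 to -4.11 and -4.95 to -4.82, and at stage 3 against stage 2 they were 0 to 0.12, -0.67 to -0.50 and 0.51 to 0.64, in the same order.

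Over all probe sets, the study's thresholds gave 131 calls at stage 2 against stage 1, 1029 at stage 3 against stage 1 and 851 at stage 3 against stage 2, in place of 12573, 19853 and 19789. These counts use the unadjusted p of limma and are not the study's own, which came from SAM. The filter on dim probe sets, which tested fewer of them, gave 12089 and 11946 calls for the comparisons with stage 3. Leaving out an array gave 8527 to 11423, 17640 to 19491 and 17635 to 19241 calls. The same replicate number correlated across stages (0.561, 0.475 and 0.463 for the deviations of stages 1 and 2, 1 and 3, and 2 and 3), although the labels do not say what the number stands for. The replicate block gave 15105, 21820 and 21781 calls, and 10 and 11 of the 13 relatives at stages 2 and 3 against stage 1, as without it. It moved the synthesis calls to 4 and 9 (from 5 and 10), the signalling calls at stage 2 to 8 (from 7), the response calls at stage 3 to 27 (from 24) and those of other esterases at stage 2 to 15 (from 14), and it changed the call of no relative and of no list member past 4-fold.

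Among the lists, the 5 calls of the synthesis genes at stage 2 became 3 to 4 with an array left out, 3 without either stage 1 or either stage 2 array. Of the relatives, Cit.13295.1.S1_s_at at stage 2 lost its call without any of the 6 arrays, Cit.13087.1.S1_s_at at stage 2 without replicate 2 of stage 1 or either stage 2 array, and at stage 3 without replicate 2 of stage 3. No named probe set changed sign with a call. Signals near the reporter controls limit the later SABP2 values.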
